A study of Rattus norvegicus with 9 samples.

Results

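The oxidative phosphorylation (OXPHOS) genes were described in INS-1E cells, a clonal rat insulinoma line used as a model of the pancreatic beta cell. Members were the genes that the KEGG column of the deposited table assigns to pathway entry 00190, without those named Atp6v or Atp6ap, which belong to the vacuolar proton pump. The rule found 111 of the 20645 genes in the table, of which 98 are encoded in the nucleus and 13 in the mitochondrial genome. The groups were BSA, the carrier protein alone, then 0.5 mM palmitic acid (PA), a saturated fatty acid, and then 0.5 mM PA with 50 µM cyanidin-3-O-glucoside (C3G), an anthocyanin. Each group had 3 libraries of polyadenylated RNA taken after 24 h. The time comes from the labels and the doses from the methods of the study, and no genotype was altered. The labels read only control, palmitic acid treated and cyanidin-3-o-glucoside treated. That the control had BSA and that the C3G group also had PA comes from the methods. There was no group with C3G alone, so the comparisons cover PA against BSA, PA + C3G against PA and PA + C3G against BSA, and they share libraries. The cells are 1 line without the other cells of an islet. The labels do not say whether the libraries came from separate cultures, while the methods of the study speak of biological triplicates for its experiments in general, and p-values measure the spread between these libraries.

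Oxidative phosphorylation takes electrons from NADH through complex I and from succinate through complex II, passes them through complexes III and IV to oxygen, and uses the proton gradient built on the way to drive ATP synthase, complex V. Complexes I, III, IV and V combine subunits encoded in the nucleus with subunits encoded in mitochondrial DNA, whereas complex II is encoded in the nucleus alone. In beta cells the ATP made in this way from glucose closes potassium channels and so couples glucose to insulin release.

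Total estimated counts per library lay between 45559993 and 66730721. All 10 beta cell markers looked up, among them Ins1, Ins2, Pdx1 and Nkx6-1, exceeded 1 FPKM (fragments per kilobase of transcript, scaled to library depth) in at least 1 library. Of the 20 markers of other cells, 10 were in the table and 3 exceeded 1 FPKM. The alpha cell hormone gene Gcg ranged over 8.28 to 31.2 FPKM in BSA, 1.35 to 6.02 in PA and 4.17 to 22.5 in PA + C3G. The duct keratin gene Krt7 ranged over 80.8 to 119, 86.3 to 124 and 101 to 149 FPKM in the same order, and Sox9 over 2.52 to 2.72, 4.52 to 5.86 and 3.05 to 3.87 FPKM. The 7 other markers, among them Col1a1 of fibroblasts, Ptprc of leukocytes and Cpa1 of acinar cells, stayed below 1 FPKM. Sox9 and Gcg moved with the groups. Beta cell markers varied between libraries to differing degrees, with Ins2 at 1748 to 15321 FPKM, Slc2a2 at 100 to 527 and Neurod1 at 134 to 161. The study ranks Ins1, Ins2 and Slc2a2 among the top genes raised by C3G. The part of all these markers in the OXPHOS values was not tested. In bulk RNA, fewer cells with a transcript and less of it per cell cannot be told apart.

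OXPHOS mRNAs were abundant. Mitochondrially encoded members took 15.1% ± 0.941 (SD, n = 3) of the FPKM sum in BSA, 14.5% ± 0.715 in PA and 14.8% ± 0.669 in PA + C3G, and the 98 nuclear members took 2.08% ± 0.0212, 2.08% ± 0.0599 and 2.01% ± 0.0719. The ranges of the 3 groups overlapped for both shares. Per length, the 13 mitochondrial mRNAs ran from 1738 FPKM for Mt-nd6 to 15199 FPKM for Mt-co3 on average over all libraries. Among nuclear members that were tested the median level was 87.1 FPKM, from 2.36 for Ndufa4l2 to 632 for Atp5f1b, the beta subunit of ATP synthase.

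Of the 98 nuclear members, 90 reached a mean of 1 FPKM over all 9 libraries and were tested. The 8 others were Atp4a, Cox4i2, Cox6b2, Cox7a1, Cox7b2, Tcirg1, a row named Ndufs6 on chromosome 2 and a row named Ndufa10l1 on chromosome 6. Calls rest on the quasi-likelihood F-test of edgeR, and a gene was called changed where its p, adjusted over all 12958 tested genes, fell below 0.05. Of the 90, 16 rose and 16 fell in PA against BSA, where 25.8% of all tested genes rose and 25.2% fell. The nuclear members were therefore called at 17.8% in each direction, below the share over all genes, and their median log2 fold change was -0.04 against 0.00 over all genes. In PA + C3G against PA, 9 rose and 8 fell (10% and 8.89%), beside 11.1% and 10.2% of all genes, with a median of 0.06. In PA + C3G against BSA, 11 rose and 6 fell, beside 19% and 17.9% of all genes, with a median of -0.02. When the libraries were instead scaled to equal FPKM sums, 4 nuclear members rose and 24 fell in PA + C3G against PA, and 8 rose and 18 fell in PA + C3G against BSA, while the median of all genes moved to -0.09 and -0.05. The balance of rises and falls in both comparisons with PA + C3G thus depended on that scaling. It also depended on single libraries. The number that fell in PA + C3G against PA was 5 without PA library 1, without PA library 3 or without PA + C3G library 3. The number that fell in PA + C3G against BSA was 3 without BSA library 3, 10 without BSA library 2, 13 without PA + C3G library 1 and 2 without PA + C3G library 2.

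All 13 mitochondrially encoded members were tested. In PA against BSA 6 fell and 0 rose (25.2% and 25.8% of all genes), with a median of -0.16. In PA + C3G against PA 4 rose and 0 fell (11.1% and 10.2%), with a median of 0.17. Both counts of 0 by edgeR were also 0 at an unadjusted p below 0.05, by DESeq2 and by limma. Against BSA, 1 rose and 1 fell in PA + C3G (19% and 17.9% of all genes), with a median of 0.01. Large changes were rare. By the criterion of the study for differentially expressed genes, a fold change above 2 with an unadjusted p below 0.05, nuclear members gave 2 such genes in PA against BSA (7.56% of all tested genes), 1 in PA + C3G against PA (1.13%) and 2 in PA + C3G against BSA (4.63%), and mitochondrial members gave 0 in each. The nuclear genes were Cox6a2 in all 3 comparisons and Uqcr10 in both comparisons with BSA.

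**Figure D1:**
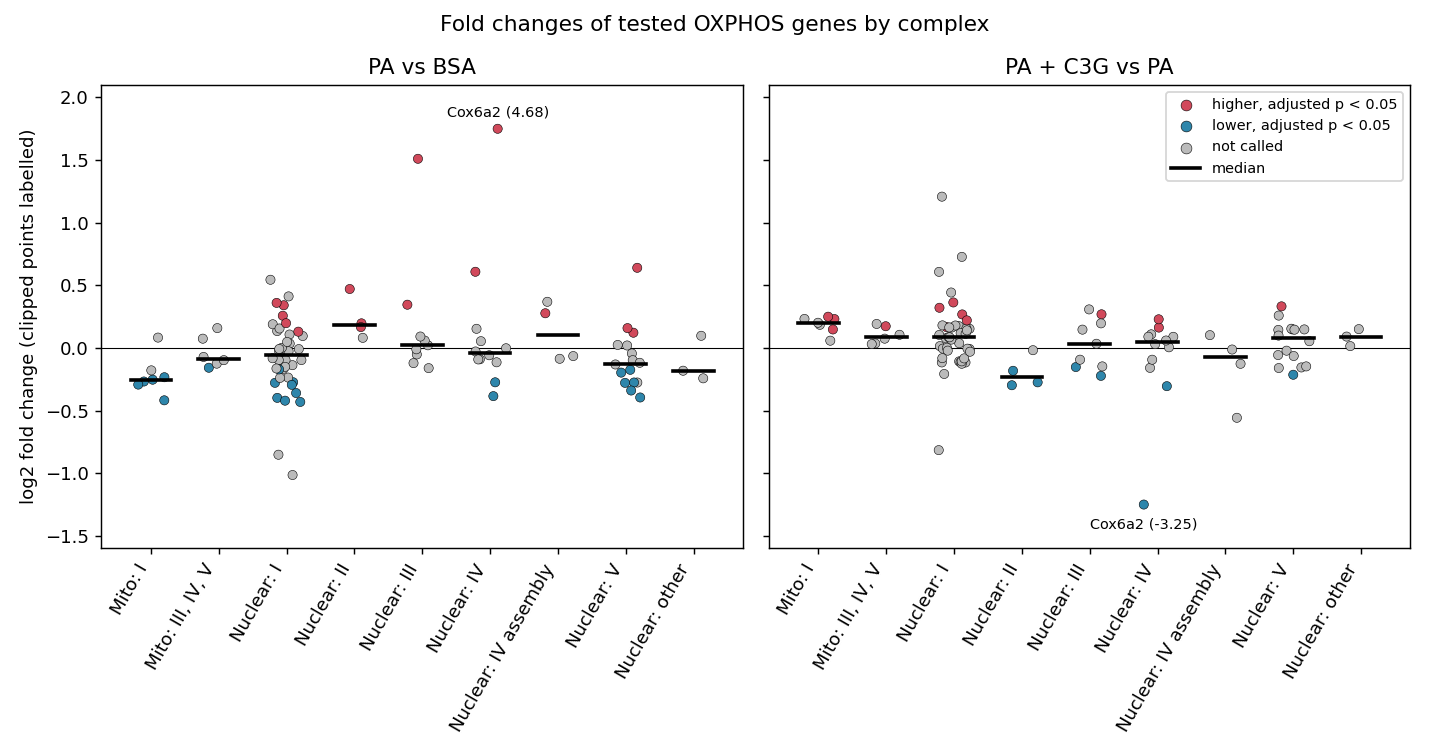
Log2 fold changes (y axis) of the tested OXPHOS genes, grouped by genome and complex (x axis), for PA against BSA (left) and PA + C3G against PA (right). Each point is 1 gene, coloured by its call, and the bar is the median of the group. Complex II lies above 0 on the left and below 0 on the right, 6 of the 7 mitochondrial complex I genes do the reverse (Mt-nd2 lies above 0 on both sides), and Cox6a2 leaves the axis on both sides.

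The mitochondrial genome carries 7 subunits of complex I, cytochrome b of complex III, 3 subunits of complex IV and 2 subunits of ATP synthase. Of the 7 complex I genes, 5 fell in PA, namely Mt-nd1, Mt-nd3, Mt-nd4l, Mt-nd5 and Mt-nd6, and so did Mt-cyb, whereas the 3 complex IV genes and the 2 ATP synthase genes were not called. In PA + C3G against PA all 13 log2 fold changes were above 0, although Mt-nd2, Mt-atp6, Mt-co1 and Mt-co3 turned below 0 with libraries scaled to equal FPKM sums and Mt-atp6 and Mt-co3 did so in 5 of 17 alternatives, and Mt-nd1, Mt-nd5, Mt-nd6 and Mt-cyb were called.

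Mt-nd1 (chromosome MT, 2740 to 3694, plus strand), which encodes a core membrane subunit of complex I, was at 3931, 4499.6 and 4184 FPKM in the BSA libraries, 3489, 3619 and 3296 in the PA libraries and 3906, 3948 and 4052 in the PA + C3G libraries. All 3 PA libraries lay below every library of the other groups, which overlapped each other. Its log2 fold change was -0.25 ± 0.05 (SE), adjusted p = 0.0030, in PA against BSA and 0.23 ± 0.05 (SE), adjusted p = 0.014, in PA + C3G against PA.

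Mt-nd5 (chromosome MT, 11736 to 13565, plus strand), another core subunit of the proton-pumping arm, was at 2287, 2331 and 2379 FPKM in the BSA libraries, 2034, 1927 and 1889 in the PA libraries and 2105, 2076 and 2138 in the PA + C3G libraries. Here the PA + C3G libraries stood between the other groups without overlap. The log2 fold change was -0.23 ± 0.03 (SE), adjusted p = 3.6e-04, for PA against BSA, then 0.15 ± 0.03 (SE), adjusted p = 0.016, for PA + C3G against PA, and -0.09 ± 0.03 (SE), adjusted p = 0.082, for PA + C3G against BSA.

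Mt-nd6 (chromosome MT, 13543 to 14061, minus strand) is the single protein-coding gene of the other strand and overlaps the end of Mt-nd5. It measured 1796, 1991 and 1935 FPKM in the BSA libraries, 1625, 1488 and 1480.4 in the PA libraries and 1858, 1689.9 and 1776 in the PA + C3G libraries. The 3 PA libraries were again the lowest of all 9, with -0.29 ± 0.06 (SE), adjusted p = 0.0016, against BSA and 0.25 ± 0.06 (SE), adjusted p = 0.012, for PA + C3G against PA.

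Mt-nd4l (chromosome MT, 9870 to 10166, plus strand), a small subunit gene whose frame runs into Mt-nd4, had the largest fall with PA among the 13. It stood at 3762, 4269 and 3803 FPKM in the BSA libraries, 2931, 3156 and 2617 in the PA libraries and 3109, 3389 and 3263 in the PA + C3G libraries. PA and PA + C3G libraries overlapped, and all 6 lay below every BSA library. Its log2 fold change was -0.42 ± 0.07 (SE), adjusted p = 0.0012, in PA against BSA, 0.20 ± 0.07 (SE), adjusted p = 0.087, in PA + C3G against PA, and -0.22 ± 0.07 (SE), adjusted p = 0.046, in PA + C3G against BSA, where it was the 1 mitochondrial gene called lower.

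Mt-nd3, at 2911, 3385 and 2817 FPKM in the BSA libraries, 2521, 2732 and 2185 in the PA libraries and 2696, 2857 and 2693 in the PA + C3G libraries, fell in PA by 0.27 ± 0.09 on the log2 scale (adjusted p = 0.030). Its PA + C3G value was not called against PA (0.18 ± 0.09 (SE), adjusted p = 0.18). Mt-nd4, which shares reads with Mt-nd4l, spread widely within groups, at 2231, 2862 and 1972 FPKM in the BSA libraries, 2138, 2408 and 1585 in the PA libraries and 2301, 2678 and 2044 in the PA + C3G libraries, and was not called in any comparison (-0.18 ± 0.18, 0.23 ± 0.18 and 0.05 ± 0.17 in the order used above). Mt-nd2 was the exception within complex I. It measured 3414, 3804 and 3671 FPKM in the BSA libraries, 3752, 3939.5 and 3645 in the PA libraries and 3704, 3887 and 3917 in the PA + C3G libraries, with 0.08 ± 0.05 (SE), adjusted p = 0.18, in PA against BSA and 0.14 ± 0.05 (SE), adjusted p = 0.044, in PA + C3G against BSA, the 1 rise among the 13 in that comparison.

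Mt-cyb, which encodes cytochrome b, the heme-carrying core of complex III, was at 8485, 9666 and 9111 FPKM in the BSA libraries, 7836, 8318 and 7867 in the PA libraries and 8599.7, 8927 and 8890.1 in the PA + C3G libraries. The PA libraries were the lowest, and the fall against BSA (-0.16 ± 0.05 (SE), adjusted p = 0.020) and the rise in PA + C3G against PA (0.17 ± 0.05 (SE), adjusted p = 0.030) were both called, the latter with the call lost in 9 of 17 alternatives. The complex IV genes were the most abundant. Mt-co1, the catalytic subunit, was at 13451, 14945 and 14051 FPKM in the BSA libraries, 13128, 13468 and 13107 in the PA libraries and 13360.2, 13382 and 14016 in the PA + C3G libraries, Mt-co2, which receives electrons from cytochrome c, at 8215, 9364 and 8496 FPKM in the BSA libraries, 7802, 8375 and 7322 in the PA libraries and 8454, 8882 and 8837 in the PA + C3G libraries, and Mt-co3 at 13966, 15933 and 14671 FPKM in the BSA libraries, 15429, 16114 and 14578 in the PA libraries and 14186, 16528 and 15388 in the PA + C3G libraries. Groups overlapped for Mt-co1 and Mt-co3. For Mt-co2 the log2 fold change was -0.13 ± 0.06 (SE), adjusted p = 0.11, in PA against BSA and 0.19 ± 0.06 (SE), adjusted p = 0.050, in PA + C3G against PA, just outside the threshold.

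Mt-atp8 and Mt-atp6 overlap each other and lie on a shared transcript, and the last base of Mt-atp6 is the first of Mt-co3. Mt-atp8 was at 9895, 12428 and 10394 FPKM in the BSA libraries, 9664, 10868 and 9527 in the PA libraries and 9361, 10839 and 11336 in the PA + C3G libraries, and Mt-atp6 at 1644, 2035 and 2050.4 FPKM in the BSA libraries, 1951, 2251 and 2086 in the PA libraries and 2066, 2193 and 2004 in the PA + C3G libraries. Neither was called in any comparison, and their log2 fold changes in PA against BSA, -0.10 ± 0.10 and 0.16 ± 0.09, had opposite signs. Reads in overlapping frames cannot be assigned to 1 gene, so the values of Mt-atp8, Mt-atp6, Mt-nd4l and Mt-nd4 are uncertain as separate genes.

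The mitochondrial calls rested on single libraries to differing degrees. In PA against BSA Mt-nd1, Mt-nd4l, Mt-nd5 and Mt-nd6 fell whichever library was left out, whereas Mt-nd3 and Mt-cyb lost their calls without PA library 1 or PA library 3, and Mt-nd3 also without BSA library 2. The number that rose in PA + C3G against PA was 0 without PA library 3, 1 without PA + C3G library 3, and 1 with libraries scaled to equal FPKM sums, where the median was 0.085. The rise of Mt-nd2 in PA + C3G against BSA was lost without BSA library 1 or 3 and without any 1 of the PA + C3G libraries, and the fall of Mt-nd4l without BSA library 2 or 3 and without any 1 of the PA + C3G libraries, which left 0 calls each.

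**Figure D2:**
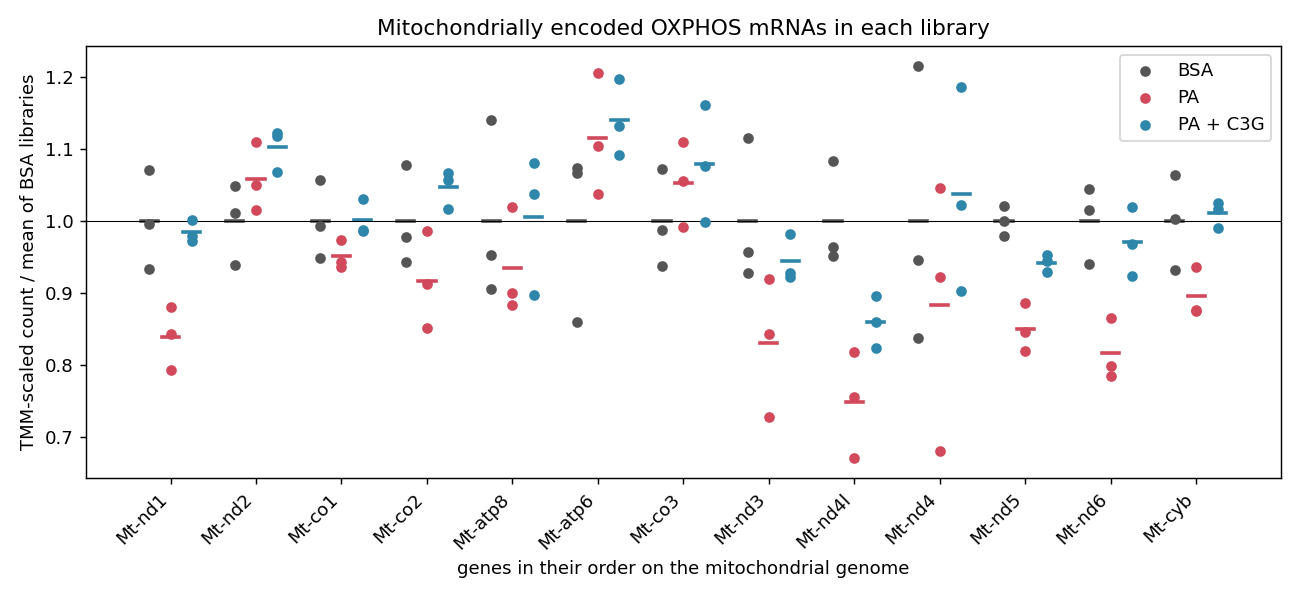
TMM-scaled counts of the 13 mitochondrially encoded OXPHOS genes in each library, divided by the mean of the BSA libraries (y axis), with genes in their order on the mitochondrial genome (x axis). Points are libraries and bars are group means. PA libraries sit lowest at Mt-nd1, Mt-nd5 and Mt-nd6, and at Mt-cyb PA library 2 stands level with the lowest BSA library, while Mt-nd2, Mt-atp6 and Mt-co3 have PA means above BSA that did not pass the test.

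Complex I, the NADH dehydrogenase, has its catalytic core in 7 nuclear and 7 mitochondrial subunits, surrounded by accessory subunits that serve assembly and stability. Of 44 nuclear rows 42 were tested, and 5 rose and 8 fell in PA against BSA (25.8% and 25.2% of all genes), 5 rose and 0 fell in PA + C3G against PA (11.1% and 10.2%), and 5 rose and 3 fell in PA + C3G against BSA (19% and 17.9%). At 11.9% and 19% of the tested rows, both shares in PA against BSA were below those over all genes. Beside the 0 by edgeR, 5 complex I genes were lower at an unadjusted p below 0.05, 1 by DESeq2 and 3 by limma. Among the 7 core subunits, which carry the flavin and the iron-sulfur clusters, 1 rose in PA and 0 were called in PA + C3G against PA, where 3 were lower at an unadjusted p below 0.05, 0 by DESeq2 and 2 by limma. All 8 that fell in PA were outside the core, where 35 rows were tested and 22.9% fell, beside 25.2% of all genes. They include Ndufa4, now known as a subunit of complex IV. Limma called 1 core gene lower in PA, beside 0 by edgeR, by DESeq2 and at an unadjusted p below 0.05.

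Ndufs7, the core subunit with the terminal iron-sulfur cluster, was the core gene that rose. It was at 38.4, 44.1 and 37.8 FPKM in the BSA libraries, 49.4, 48.5 and 54.0 in the PA libraries and 47.2, 48.0 and 44.7 in the PA + C3G libraries. Every PA and PA + C3G library exceeded every BSA library, and PA + C3G overlapped neither BSA nor PA. The log2 fold change was 0.36 ± 0.07 (SE), adjusted p = 0.0016, in PA against BSA, -0.08 ± 0.07 (SE), adjusted p = 0.45, in PA + C3G against PA and 0.28 ± 0.07 (SE), adjusted p = 0.010, in PA + C3G against BSA. Ndufv2, a core subunit of the NADH-binding module, fell in PA + C3G against BSA (-0.11 ± 0.04 (SE), adjusted p = 0.047).

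Among accessory subunits, the row named Ndufa10l1 on chromosome 9, a subunit of the membrane arm, was at 22.4, 20.6 and 20.8 FPKM in the BSA libraries, 25.2, 27.0 and 27.1 in the PA libraries and 24.7, 22.5 and 24.7 in the PA + C3G libraries. It rose in PA (0.34 ± 0.06 (SE), adjusted p = 6.0e-04) and in PA + C3G against BSA (0.23 ± 0.06 (SE), adjusted p = 0.0083), and every PA library exceeded every BSA library. Its value for PA + C3G against PA was -0.11 ± 0.06 (SE), adjusted p = 0.20. Ndufa6, Ndufv3 and Ndufb10 also rose in PA, by 0.26, 0.20 and 0.13 on the log2 scale, and Ndufa6, Ndufv3 and Ndufb2 rose in PA + C3G against BSA, by 0.25, 0.28 and 0.28.

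Ndufs5, a small subunit of the membrane arm, had the smallest p of the complex I genes that fell in PA. It measured 127, 124 and 124 FPKM in the BSA libraries, 97.8, 83.8 and 94.1 in the PA libraries and 105, 101 and 107 in the PA + C3G libraries. The groups did not overlap, with PA + C3G between PA and BSA. The log2 fold change was -0.42 ± 0.05 (SE), adjusted p = 1.5e-04, in PA against BSA, 0.22 ± 0.06 (SE), adjusted p = 0.020, in PA + C3G against PA, and -0.20 ± 0.05 (SE), adjusted p = 0.017, in PA + C3G against BSA. The call in PA + C3G against PA was lost without PA + C3G library 1 or 3, and that against BSA without PA + C3G library 2.

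Ndufb6, another membrane-arm subunit, was at 91.5, 91.5 and 99.98 FPKM in the BSA libraries, 71.1, 67.9 and 72.1 in the PA libraries and 86.1, 77.9 and 83.7 in the PA + C3G libraries. Again PA + C3G lay between the others without overlap, with -0.40 ± 0.05 (SE), adjusted p = 1.9e-04, in PA against BSA and 0.27 ± 0.05 (SE), adjusted p = 0.0079, in PA + C3G against PA. The row shares a stretch of the same strand with Topors, so part of its reads could come from that gene.

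Ndufa4, listed by KEGG with complex I and now known as a subunit of complex IV, was at 214, 208 and 203 FPKM in the BSA libraries, 162, 157 and 161 in the PA libraries and 214, 177 and 193 in the PA + C3G libraries. PA libraries were the lowest, and PA + C3G overlapped BSA. The fall in PA was -0.36 ± 0.06 (SE), adjusted p = 9.3e-04, and the rise in PA + C3G against PA was 0.32 ± 0.06 (SE), adjusted p = 0.0066. Its paralog Ndufa4l2, known as a gene of hypoxic cells, stayed between 1.47 and 3.01 FPKM and was not called in any comparison, with 0.61 ± 0.21 (SE), adjusted p = 0.065, in PA + C3G against PA.

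The remaining falls in PA were those of Ndufab1, Ndufa12, Ndufa2, Ndufb3 and Ndufs4, between -0.43 and -0.17 on the log2 scale. Ndufab1, the acyl carrier protein that also serves mitochondrial fatty acid synthesis, was at 27.4, 27.9 and 28.3 FPKM in the BSA libraries, 21.8, 20.1 and 19.1 in the PA libraries and 21.4, 18.9 and 22.4 in the PA + C3G libraries. PA and PA + C3G libraries overlapped and lay below BSA, with -0.43 ± 0.07 (SE), adjusted p = 5.9e-04, in PA against BSA and -0.35 ± 0.07 (SE), adjusted p = 0.0032, in PA + C3G against BSA. Ndufa12 fell in PA (-0.27 ± 0.04) and rose in PA + C3G against PA (0.17 ± 0.04), and Ndufa11 rose in the latter (0.36 ± 0.10). The 29 other tested complex I rows were not called in PA against BSA.

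Complex II, succinate dehydrogenase, links the citric acid cycle to the respiratory chain and is the complex without a mitochondrially encoded subunit. Of its 4 genes, 3 rose and 0 fell in PA, beside 25.8% and 25.2% of all tested genes. In PA + C3G against PA 3 fell and 0 rose, beside 10.2% and 11.1%. The called genes were Sdha, Sdhb and Sdhd each time. Both counts of 0 by edgeR were also 0 at an unadjusted p below 0.05, by DESeq2 and by limma. Sdha, the flavoprotein that oxidizes succinate (chromosome 1, 31545631 to 31570601, plus strand), was at 55.2, 59.3 and 55.3 FPKM in the BSA libraries, 77.9, 75.3 and 78.0 in the PA libraries and 63.1, 61.9 and 58.4 in the PA + C3G libraries. Every PA library exceeded every other library, and PA + C3G overlapped BSA. The log2 fold change was 0.47 ± 0.04 (SE), adjusted p = 1.7e-05, in PA against BSA, -0.30 ± 0.04 (SE), adjusted p = 0.0019, in PA + C3G against PA and 0.17 ± 0.04 (SE), adjusted p = 0.012, in PA + C3G against BSA. The last call was lost without BSA library 1 or 3, and the others held whichever library was left out.

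Sdhb, the iron-sulfur subunit, measured 50.2, 50.1 and 46.3 FPKM in the BSA libraries, 57.7, 50.6 and 57.0 in the PA libraries and 46.6, 46.7 and 48.6 in the PA + C3G libraries, with 0.20 ± 0.06 (SE), adjusted p = 0.015, in PA against BSA and -0.18 ± 0.06 (SE), adjusted p = 0.046, in PA + C3G against PA. PA library 2, at 50.6 FPKM, lay next to the highest BSA library. The call in PA was lost without BSA library 3, PA library 1 or PA library 3, and that in PA + C3G against PA without any 1 library except PA library 2. Sdhd, a membrane anchor that binds ubiquinone, was at 40.0, 39.0 and 41.0 FPKM in the BSA libraries, 44.2, 42.2 and 46.0 in the PA libraries and 36.4, 33.3 and 37.0 in the PA + C3G libraries. Its groups did not overlap and PA + C3G was the lowest, with 0.17 ± 0.05 (SE), adjusted p = 0.021, in PA against BSA and -0.27 ± 0.05 (SE), adjusted p = 0.0057, in PA + C3G against PA. The first call was lost without BSA library 1 or 2 and without PA library 1 or 3, and the second held throughout. Sdhc, the other anchor, was at 76.8, 68.5 and 75.1 FPKM in the BSA libraries, 81.6, 70.9 and 76.6 in the PA libraries and 75.7, 71.4 and 73.5 in the PA + C3G libraries. The groups overlapped, and the log2 fold changes of 0.08 ± 0.06 (SE), adjusted p = 0.29, and -0.02 ± 0.06 (SE), adjusted p = 0.87, were not called.

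Promoter windows, from 250 bases before to 50 after the start of each gene in RefSeq on GRCr8, are shown for the 4 complex II genes because 3 of them were called in the same directions. Capitals mark matches on either strand to 6 motifs known from OXPHOS or stress promoters, namely CGCANGCG (core of the NRF1 site), CCGGAAG (ETS factors such as GABP), AAGATGGC (YY1), AAGGTCA (ERR receptors), TGATGNAAT (C/EBP-ATF) and the MEF2 motif. Windows were found by symbol for 80 of the 98 nuclear members. The NRF1 core was in 31.2% of them (8.23% of all 27457 windows), the ETS motif in 26.2% (9.22%), the YY1 motif in 21.2% (3.44%) and the ERR motif in 15% (4.37%).
Sdha, chr1:30764303-30764602, plus strand: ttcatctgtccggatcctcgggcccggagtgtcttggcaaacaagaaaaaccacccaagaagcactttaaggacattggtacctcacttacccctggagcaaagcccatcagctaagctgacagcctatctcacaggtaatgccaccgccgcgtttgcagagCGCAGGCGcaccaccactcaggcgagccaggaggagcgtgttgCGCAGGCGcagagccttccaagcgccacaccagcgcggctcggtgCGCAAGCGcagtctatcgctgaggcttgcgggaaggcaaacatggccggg
Sdhb, chr5:158547684-158547983, plus strand: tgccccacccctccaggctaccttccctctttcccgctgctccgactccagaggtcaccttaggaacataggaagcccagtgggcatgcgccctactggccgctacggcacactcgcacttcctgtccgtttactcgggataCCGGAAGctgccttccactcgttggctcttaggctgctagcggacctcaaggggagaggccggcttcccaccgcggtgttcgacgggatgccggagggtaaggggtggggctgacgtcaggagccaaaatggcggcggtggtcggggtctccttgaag
Sdhd, chr8:59850592-59850891, minus strand: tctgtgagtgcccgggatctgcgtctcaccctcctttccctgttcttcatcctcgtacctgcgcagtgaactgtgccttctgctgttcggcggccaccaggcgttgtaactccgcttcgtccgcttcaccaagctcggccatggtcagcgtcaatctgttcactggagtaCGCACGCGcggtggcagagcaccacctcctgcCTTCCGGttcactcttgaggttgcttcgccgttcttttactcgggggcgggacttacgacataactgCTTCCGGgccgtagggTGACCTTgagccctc
Sdhc, chr13:86097976-86098275, minus strand: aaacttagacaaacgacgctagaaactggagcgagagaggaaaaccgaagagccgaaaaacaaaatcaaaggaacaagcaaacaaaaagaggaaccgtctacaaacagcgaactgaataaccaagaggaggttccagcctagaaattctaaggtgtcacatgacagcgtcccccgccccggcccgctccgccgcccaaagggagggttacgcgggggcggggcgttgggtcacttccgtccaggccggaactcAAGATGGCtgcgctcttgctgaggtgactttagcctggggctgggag
The Sdha window held 3 NRF1 cores, that of Sdhb 1 ETS match, that of Sdhd 1 NRF1 core, 2 ETS matches and 1 ERR match, and that of Sdhc 1 YY1 match. None of these matches overlaps another, and no single motif was shared by the 3 genes that were called. A match is a description of letters and not a binding site.

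Complex III passes electrons from ubiquinol to cytochrome c. Of its 9 nuclear rows, 2 rose and 0 fell in PA, beside 25.8% and 25.2% of all genes. By DESeq2, by limma and at an unadjusted p below 0.05, 1 was lower in PA. In PA + C3G against PA 1 rose and 2 fell, beside 11.1% and 10.2%. The catalytic Cyc1 and Uqcrfs1 and the core protein Uqcrc1 were not called in any comparison. Uqcrh, the hinge protein beside cytochrome c1, was at 94.7, 109 and 99.4 FPKM in the BSA libraries, 127, 126 and 126 in the PA libraries and 105, 113 and 98.8 in the PA + C3G libraries. Every PA library exceeded every other library, and BSA and PA + C3G overlapped. It rose in PA (0.35 ± 0.06 (SE), adjusted p = 0.0013) and fell in PA + C3G against PA (-0.22 ± 0.06 (SE), adjusted p = 0.033), a call that was lost without any 1 of the libraries compared except PA + C3G library 2. Uqcrc2, a core protein, was at 85.3, 80.4 and 88.9 FPKM in the BSA libraries, 81.1, 82.0 and 85.5 in the PA libraries and 75.5, 70.3 and 72.2 in the PA + C3G libraries, with -0.15 ± 0.05 (SE), adjusted p = 0.045, in PA + C3G against PA and -0.16 ± 0.05 (SE), adjusted p = 0.021, against BSA. All 3 PA + C3G libraries lay below the others. The first call was lost without any 1 of the libraries compared except PA + C3G library 1, and the second without BSA library 3 or PA + C3G library 2 or 3. Uqcrq, a small ubiquinone-binding subunit, was at 58.6, 55.9 and 54.9 FPKM in the BSA libraries, 51.9, 48.9 and 52.4 in the PA libraries and 65.1, 56.7 and 57.9 in the PA + C3G libraries. Its rise in PA + C3G against PA was 0.27 ± 0.06 (SE), adjusted p = 0.011, and the PA libraries were the lowest of the 9.

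Uqcr10, a small subunit that the criterion of the study counts as changed, split within a group. It was at 17.5, 13.5 and 17.7 FPKM in the BSA libraries, 60.0, 59.4 and 16.5 in the PA libraries and 56.9, 53.4 and 54.1 in the PA + C3G libraries. PA libraries 1 and 2 stood with the PA + C3G libraries and PA library 3 with the BSA libraries, so the group mean of PA matches no library. The fit gave 1.51 ± 0.39 (SE), adjusted p = 0.0092, in PA against BSA and 1.82 ± 0.39 (SE), adjusted p = 0.0054, in PA + C3G against BSA. Without PA library 3 the first was 1.91, and PA + C3G against PA, 0.31 ± 0.38 over all libraries, was -0.09.

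Complex IV, cytochrome c oxidase, hands electrons to oxygen, and several of its nuclear subunits come as isoforms for different tissues. Of 16 rows 12 were tested. In PA 2 were higher and 2 lower, 16.7% each way beside 25.8% and 25.2% of all genes. In PA + C3G against PA 2 were higher and 2 lower, beside 11.1% and 10.2%. In PA + C3G against BSA 2 were higher and 0 lower, beside 19% and 17.9%. Beside the 0 by edgeR, 2 were lower at an unadjusted p below 0.05, 2 by DESeq2 and 3 by limma. The untested rows were the second isoforms Cox4i2, Cox6b2, Cox7a1 and Cox7b2, all at or below 0.53 FPKM in every library, whereas the broadly used Cox4i1, Cox6b1 and Cox8a lay between 88.2 and 515 FPKM and were not called in any comparison.

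Cox6a2, the isoform of subunit 6a known from heart and skeletal muscle (chromosome 1, 199624037 to 199624783, minus strand), changed more than any other tested OXPHOS gene in PA against BSA and in PA + C3G against PA. It was at 0.298, 0.449 and 0.545 FPKM in the BSA libraries, 11.97, 10.4 and 11.4 in the PA libraries and 0.706, 1.08 and 1.67 in the PA + C3G libraries. No group overlapped another, and the PA + C3G libraries lay closer to BSA than to PA. Its group means were 0.431, 11.3 and 1.15 FPKM in BSA, PA and PA + C3G. Cox6a2 thus reached the mean of 1 FPKM needed for testing through its PA libraries, the group where it is high. Its rank and p-values are to be read with that limit. The fit gave a 25.6-fold rise in PA (log2 fold change 4.68 ± 0.34 (SE), adjusted p = 3.2e-06), a 9.51-fold fall in PA + C3G against PA (-3.25 ± 0.32 (SE), adjusted p = 2.6e-04) and a 2.69-fold rise in PA + C3G against BSA (1.43 ± 0.33 (SE), adjusted p = 0.0077). Estimated counts behind these values were 10 to 17 per library in BSA, 300 to 388 in PA and 24 to 38 in PA + C3G. The nearest neighbour in the table, Itgam, lies 77 bases away on the other strand and averaged 0.00589 FPKM in PA.

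Cox6a1, the isoform of most tissues, was at 616, 626 and 633 FPKM in the BSA libraries, 520.1, 497 and 508 in the PA libraries and 568, 523 and 574 in the PA + C3G libraries. PA libraries were the lowest without overlap with BSA or PA + C3G. It fell in PA (-0.27 ± 0.04 (SE), adjusted p = 3.8e-04) and rose in PA + C3G against PA (0.16 ± 0.04 (SE), adjusted p = 0.021), although the row overlaps Gatc on its strand and the second call was lost without PA library 2 or 3 and without PA + C3G library 1 or 3. Cox6a2 made up 0.0687% ± 0.0190 (SD, n = 3) of the summed FPKM of both isoforms in BSA, 2.17% ± 0.103 in PA and 0.207% ± 0.0826 in PA + C3G. The muscle isoform was a small part of subunit 6a mRNA in every group.

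The window of Cox6a2 is shown because of the size of its change, with capitals as above.
Cox6a2, chr1:192219667-192219966, minus strand: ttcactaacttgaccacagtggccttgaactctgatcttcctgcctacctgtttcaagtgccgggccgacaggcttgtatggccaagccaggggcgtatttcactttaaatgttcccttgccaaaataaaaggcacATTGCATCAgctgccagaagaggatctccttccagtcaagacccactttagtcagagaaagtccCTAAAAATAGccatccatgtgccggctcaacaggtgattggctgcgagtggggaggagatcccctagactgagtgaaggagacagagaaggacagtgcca
It held 1 match to the C/EBP-ATF motif, 114 bases before the start, and 1 to the MEF2 motif, 50 bases before it. Among 80 nuclear members with a window, Cox6a2 was the 1 member with either motif, and 1.05% and 0.605% of all 27457 windows held them.

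Cox7a2l, which encodes a factor that joins complexes III and IV into supercomplexes, was at 94.9, 111 and 100.2 FPKM in the BSA libraries, 151, 158 and 149.5 in the PA libraries and 115, 119.8 and 126 in the PA + C3G libraries. No group overlapped another. It rose in PA (0.61 ± 0.06 (SE), adjusted p = 2.2e-05), fell in PA + C3G against PA (-0.30 ± 0.06 (SE), adjusted p = 0.0069) and stayed above BSA in PA + C3G (0.30 ± 0.06 (SE), adjusted p = 0.0032). The row named Cox7a2l2 was not called in any comparison. Cox6c, a small membrane subunit, moved the other way, at 312, 292 and 318 FPKM in the BSA libraries, 232, 232 and 229.5 in the PA libraries and 285, 246 and 262 in the PA + C3G libraries. Every PA library lay below every other library, with -0.38 ± 0.06 (SE), adjusted p = 3.3e-04, in PA against BSA and 0.23 ± 0.06 (SE), adjusted p = 0.019, in PA + C3G against PA, a call that was lost without PA library 1 or 3.

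The 4 assembly genes of complex IV in the pathway insert heme and copper. Cox10, which makes heme O, was at 12.3, 10.4 and 10.7 FPKM in the BSA libraries, 13.5, 13.1 and 13.2 in the PA libraries and 11.9, 11.1 and 12.6 in the PA + C3G libraries and rose in PA (0.28 ± 0.07 (SE), adjusted p = 0.010), and every PA library exceeded every BSA library. Cox11, Cox15 and Cox17 were not called in any comparison by edgeR, and Cox15 had 1 PA + C3G library at 8.87 FPKM beside the others at 15.3 and 15.98.

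**Figure D3:**
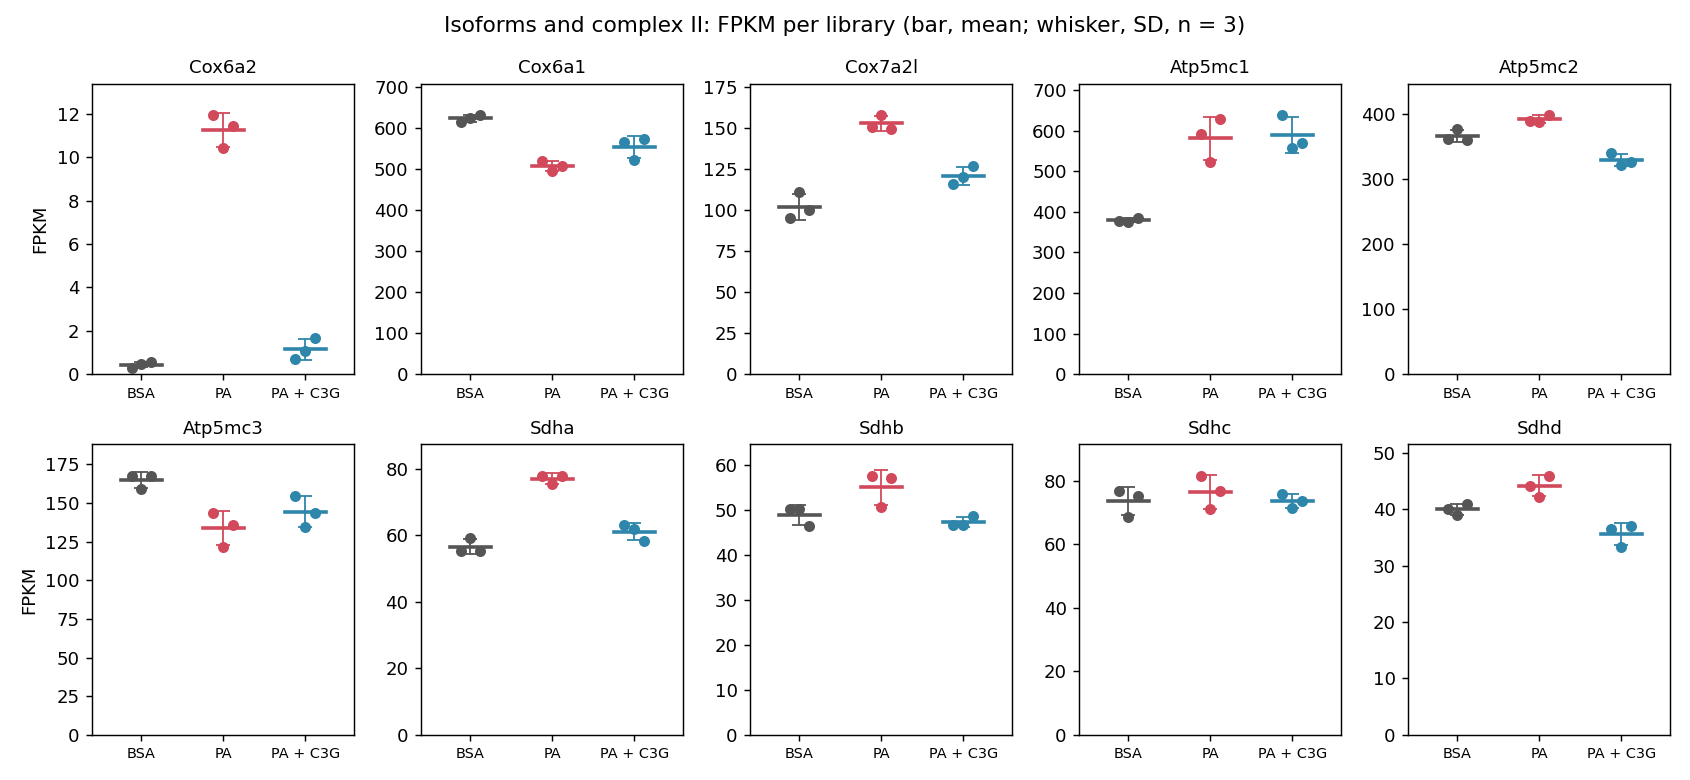
FPKM (y axis) in each library of BSA, PA and PA + C3G (x axis) for isoforms of complexes IV and V and for the 4 complex II genes. Points are libraries, the bar is the mean and the whisker the SD (n = 3). Cox6a2 stands at 10.4 to 11.97 FPKM in PA and below 1.68 elsewhere, while Atp5mc1 is high in both PA and PA + C3G.

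Complex V, the ATP synthase, joins a catalytic F1 head to a membrane rotor by central and peripheral stalks. Of its 16 nuclear rows 3 rose and 6 fell in PA, 1 rose and 1 fell in PA + C3G against PA, and 1 rose and 2 fell in PA + C3G against BSA. In PA these are 18.8% and 37.5% of the rows, beside 25.8% and 25.2% of all genes, and in PA + C3G against PA 6.25% each way, beside 11.1% and 10.2%. The catalytic Atp5f1a and Atp5f1b were among the most abundant nuclear members, at 459 ± 13.2 and 661 ± 30.8 FPKM (mean ± SD, n = 3) in BSA. Their log2 fold changes in PA against BSA were -0.04 ± 0.03 and 0.02 ± 0.05, neither of them called, and Atp5f1a fell in PA + C3G against BSA (-0.10 ± 0.03 (SE), adjusted p = 0.032), as did the row of the stalk subunit Atp5pb (-0.27 ± 0.06 (SE), adjusted p = 0.0075). Summed with its near-identical copy LOC100911417, Atp5pb gave -0.13 ± 0.03 (SE), adjusted p = 0.013, in that comparison and -0.12 ± 0.03 (SE), adjusted p = 0.012, in PA against BSA. Atp5f1e, the small epsilon subunit of the central stalk, was at 264, 253 and 258 FPKM in the BSA libraries, 191, 189 and 199 in the PA libraries and 255, 221 and 234 in the PA + C3G libraries. It fell in PA (-0.40 ± 0.05 (SE), adjusted p = 1.8e-04) and rose in PA + C3G against PA (0.33 ± 0.05 (SE), adjusted p = 0.0026), and no PA library reached another group.

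The rotor ring consists of subunit c, which 3 nuclear genes encode with the same mature protein and different targeting sequences. These 3 genes moved apart. Atp5mc1 was at 377, 375 and 385 FPKM in the BSA libraries, 592, 524 and 628 in the PA libraries and 639, 557 and 569 in the PA + C3G libraries. All 6 libraries with PA exceeded every BSA library, and PA overlapped PA + C3G. The log2 fold change was 0.64 ± 0.07 (SE), adjusted p = 4.3e-05, in PA against BSA, 0.69 ± 0.07 (SE), adjusted p = 4.6e-05, in PA + C3G against BSA, and 0.05 ± 0.07 (SE), adjusted p = 0.64, between the groups with PA.

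Atp5mc2 was at 361, 376 and 360.3 FPKM in the BSA libraries, 388, 387 and 398 in the PA libraries and 339.6, 321 and 326 in the PA + C3G libraries, with 0.12 ± 0.04 (SE), adjusted p = 0.017, in PA against BSA and -0.21 ± 0.04 (SE), adjusted p = 0.0033, in PA + C3G against PA. No group overlapped another, with PA the highest and PA + C3G the lowest. The call in PA against BSA was lost without BSA library 1 or 3 or without PA library 3. Atp5mc3 was at 168, 159 and 168 FPKM in the BSA libraries, 143, 122 and 136 in the PA libraries and 155, 135 and 144 in the PA + C3G libraries and fell in PA (-0.28 ± 0.07 (SE), adjusted p = 0.0062). Its PA + C3G libraries overlapped PA, with 0.15 ± 0.07 (SE), adjusted p = 0.15. The summed FPKM of the 3 genes was 910.1 ± 3.53 (SD, n = 3) in BSA, 1106 ± 66.7 in PA and 1061 ± 63.5 in PA + C3G, and Atp5mc1 made up 41.7%, 52.5% and 55.4% of it.

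Other falls in PA were those of the membrane subunits Atp5mg, at 176, 153 and 158 FPKM in the BSA libraries, 129, 118 and 133 in the PA libraries and 145, 126 and 137 in the PA + C3G libraries (-0.34 ± 0.07 (SE), adjusted p = 0.0027), and Atp5mf (-0.28 ± 0.06 (SE), adjusted p = 0.0048), and of the stalk subunits Atp5pd and Atp5pf (-0.17 ± 0.05 and -0.20 ± 0.07). Atp5po, the stalk subunit that confers oligomycin sensitivity, rose by 0.16 ± 0.06 on the log2 scale. None of these 5 was called in PA + C3G against PA. The row of Atp5f1c, the gamma subunit, has an implied length of 7360 bases and carries the description of another gene, so its values hold more than Atp5f1c.

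Outside the 5 complexes the pathway lists Ppa1 and Ppa2, the inorganic pyrophosphatases of cytosol and mitochondria, the phosphatase Lhpp, the proton pump gene Atp4a of gastric parietal cells and Tcirg1, a subunit of the vacuolar pump that the naming rule did not remove. Of the 3 tested, 0 were called in PA against BSA, where 1 was higher and 2 lower at an unadjusted p below 0.05, DESeq2 called 1 lower and limma 2 lower. Of the same 3 genes, 0 were called in PA + C3G against PA, at an unadjusted p below 0.05 and by DESeq2 and limma as well. Ppa1, whose row also carries reads of a neighbouring gene, averaged 55.8, 58.7 and 57.8 FPKM in BSA, PA and PA + C3G, and rose in PA + C3G against BSA (0.11 ± 0.04 (SE), adjusted p = 0.042), a call that was lost in 13 of 17 alternatives. Ppa2 averaged 10.5, 8.71 and 9.42 FPKM in BSA, PA and PA + C3G, and Lhpp 18.8, 16.3 and 16.9 FPKM in BSA, PA and PA + C3G. Atp4a and Tcirg1 stayed at or below 0.334 FPKM.

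Several OXPHOS genes have near-identical copies, and for Ndufs6 the rows varied within groups more than their sum. These rows were looked at after their values were seen. The 2 rows of Ndufs6, a complex I subunit that binds zinc, are listed on chromosome 1 as LOC100912599, from 31264755 to 31273159, and LOC679739, from 32573228 to 32581781. LOC100912599 was at 36.8, 48.9 and 39.3 FPKM in BSA, 1.55, 39.8 and 19.3 in PA and 47.7, 52.3 and 36.8 in PA + C3G. LOC679739 was at 42.8, 40.2 and 39.7 FPKM in BSA, 74.5, 39.7 and 61.8 in PA and 40.1, 20.7 and 36.6 in PA + C3G. PA library 1 was the lowest of the 9 in the first row and the highest in the second, and PA + C3G library 2 the reverse. Their sum was nearly level, at 79.6, 89.1 and 78.9 FPKM in BSA, 76.1, 79.5 and 81.1 in PA and 87.8, 73.0 and 73.4 in PA + C3G, with a log2 fold change of -0.04 ± 0.08 (SE), adjusted p = 0.71, in PA against BSA. The log2 values of -1.01 and 0.54 for the single rows therefore say nothing of Ndufs6 as a whole.

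Ndufa1, a small subunit encoded on chromosome X, was listed at 143, 126 and 166 FPKM in BSA, 0, 101 and 136 in PA and 145, 188 and 47.5 in PA + C3G. Its copy LOC108348144 has an implied length of 2605 bases against 213 for Ndufa1, so the same number of counts gives a lower FPKM in the copy. In PA libraries 1 to 3 the estimated counts were 0, 1476 and 1596 for Ndufa1 and 2688, 1903 and 889 for the copy, and in PA + C3G libraries 1 to 3 they were 2144, 2565 and 480 beside 2732, 1333 and 2391. The libraries with the fewest counts in Ndufa1, PA library 1 and PA + C3G library 3, thus had many in the copy. The single row of Ndufa1 was not called in any comparison. Once the rows of each set of copies were summed, the sums for Ndufs5 and Ndufa12 fell in PA and rose in PA + C3G against PA as the single rows had (-0.41 ± 0.05 (SE), adjusted p = 1.5e-04, and -0.26 ± 0.04 (SE), adjusted p = 3.4e-04, in PA against BSA). Uqcrb, a complex III subunit, had most of its reads, 92.5 FPKM on average against 16.8 for the member row, on another row on chromosome 1 that KEGG does not list. The sum of both Uqcrb rows fell in PA (-0.29 ± 0.06 (SE), adjusted p = 0.0029), whereas the member row was not called. For Ndufa1 the summed counts fell in PA and rose in PA + C3G against PA (-0.37 ± 0.09 (SE), adjusted p = 0.0058, in PA against BSA, and 0.56 ± 0.09 (SE), adjusted p = 0.0023, in PA + C3G against PA). With its longer copy included, this sum may hold more than Ndufa1. The summed FPKM was 153, 138 and 175 in BSA, 15.1, 112 and 142 in PA and 160, 196 and 66.8 in PA + C3G, and the groups overlapped.

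**Figure D4:**
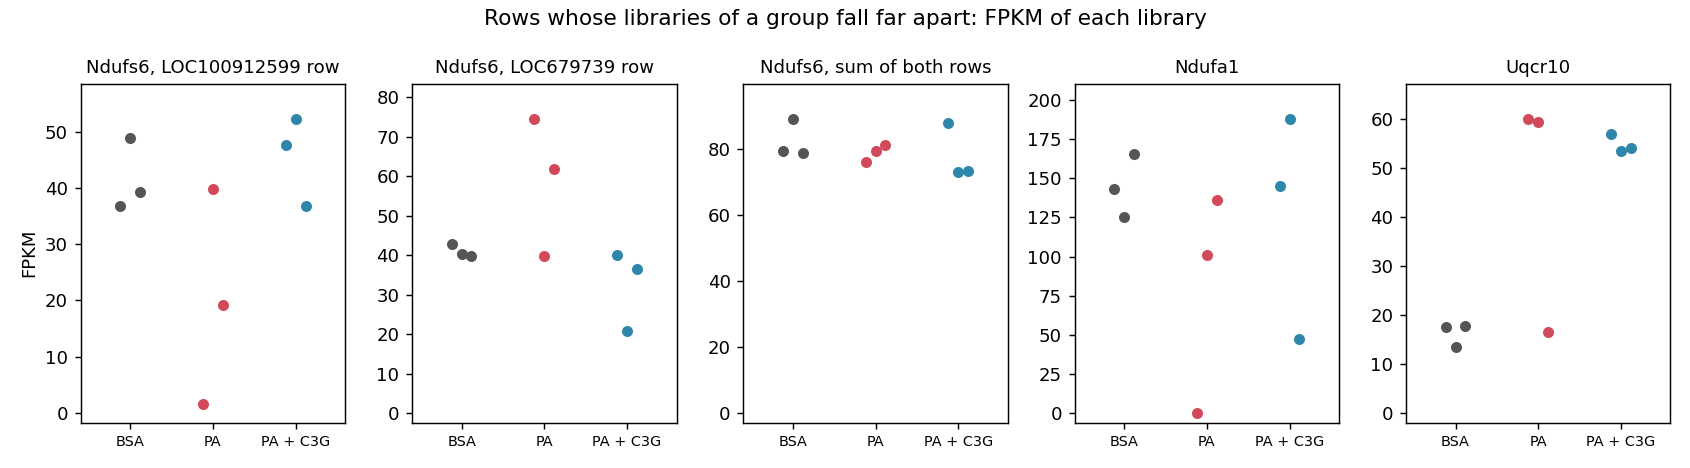
FPKM (y axis) of each library in BSA, PA and PA + C3G (x axis) for the 2 rows of Ndufs6, their sum, Ndufa1 and Uqcr10. Points are libraries, without a mean because they fall far apart. The Ndufs6 sum stays between 73.0 and 89.1 FPKM while its rows range from 1.55 to 74.5.

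Length was a feature that the rule did not use. Lengths implied by counts and FPKM, set by the mitochondrial mRNAs of known length, had a median of 670 bases among the nuclear members that fell in PA and 902 among those that rose. In PA + C3G against PA this order turned, with 577 bases among those that rose and 1100 among those that fell. Members not called had medians of 799 bases in PA against BSA and 748 in PA + C3G against PA. The same PA libraries enter both comparisons with opposite signs, so the turned order is not an independent observation. Across the 90 tested nuclear members, which share libraries and are not independent, Spearman's rho between length and log2 fold change was 0.16 for PA against BSA and -0.38 for PA + C3G against PA, beside -0.01 and -0.03 over all 12958 genes.

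In members from 500 to under 1000 bases, 10 of 34 fell and 8 rose in PA, with a median of -0.10. Other genes of that length had 21.9% lower and 21.1% higher, with a median of 0.01. Members under 500 bases had a median of -0.08 in PA and 0.12 in PA + C3G against PA, beside 0.01 and -0.04 for 962 other genes of that length. Members of 2000 bases and over had medians of 0.01 and -0.04. Below 500 bases the medians of OXPHOS genes and of other genes thus had opposite signs in both comparisons, and the difference itself was not tested.

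**Figure D5:**
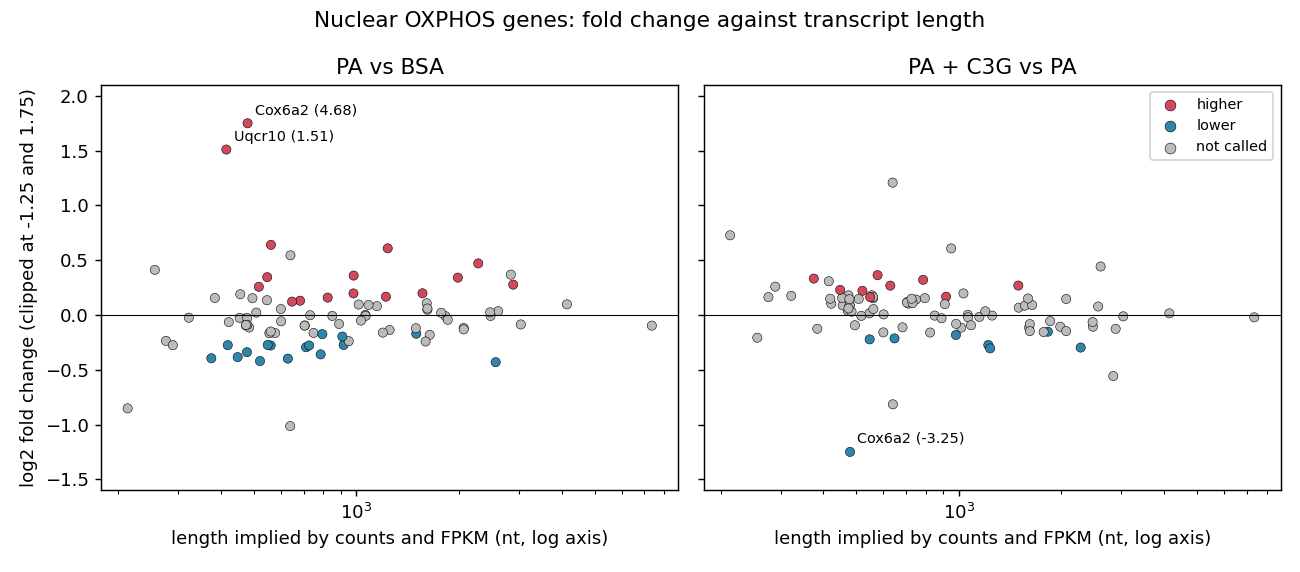
Log2 fold change (y axis) of the 90 tested nuclear OXPHOS genes against the length implied by counts and FPKM (x axis, log scale) for PA against BSA (left) and PA + C3G against PA (right). Each point is 1 gene coloured by its call. Most of the 90 genes lie below 1000 bases, whether called or not. So do most genes called lower in PA, most called higher in PA and most called higher in PA + C3G against PA. Genes called lower in PA + C3G against PA do not mostly lie there.

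Genes that serve OXPHOS without belonging to the pathway entry were counted in 4 lists, and the genes named from them were chosen after their values were seen. All tested genes gave 25.8% higher and 25.2% lower in PA, and 11.1% higher and 10.2% lower in PA + C3G against PA. Of 40 assembly factors, 8 rose and 3 fell in PA (20% and 7.5%), with a median of 0.09, and 1 rose and 2 fell in PA + C3G against PA, with a median of -0.09. Both shares in PA were below those over all genes. Tmem126b, an assembly factor of complex I, averaged 8.03, 10.9 and 8.57 FPKM in BSA, PA and PA + C3G. It rose in PA (0.46 ± 0.07 (SE), adjusted p = 6.0e-04) and fell in PA + C3G against PA (-0.31 ± 0.07 (SE), adjusted p = 0.018). Timmdc1 and Cox18 rose in PA by 0.51 ± 0.09 and 0.44 ± 0.09 on the log2 scale.

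Of 30 genes for mitochondrial DNA and RNA, 8 rose and 5 fell in PA (26.7% and 16.7%, near and below the shares over all genes), and 0 rose and 2 fell in PA + C3G against PA. Beside this 0 by edgeR, 3 were higher at an unadjusted p below 0.05 and 0 by DESeq2 or limma. Fastk and Fastkd1, of a family of mitochondrial RNA-binding proteins, both rose in PA (0.83 ± 0.06 and 0.92 ± 0.13) and fell in PA + C3G against PA (-0.32 ± 0.06 and -0.76 ± 0.13). Polrmt, the mitochondrial RNA polymerase, rose in PA (0.38 ± 0.06 (SE), adjusted p = 8.7e-04), whereas Tfam, the packaging factor of mitochondrial DNA, fell (-0.29 ± 0.06 (SE), adjusted p = 0.0020), as did the exonuclease gene Mgme1 (-0.73 ± 0.09 (SE), adjusted p = 1.0e-04).

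Of 14 transcription factors and coactivators of nuclear OXPHOS genes, 3 rose and 5 fell in PA (21.4% and 35.7%), and 2 rose and 4 fell in PA + C3G against PA (14.3% and 28.6%), beside the shares over all genes given above. In PA + C3G against BSA 2 rose and 7 fell (14.3% and 50%), beside 19% and 17.9% of all genes. Ppargc1a, the coactivator PGC-1α, was at 1.42, 0.791 and 1.01 FPKM in the BSA libraries, 5.21, 3.46 and 4.53 in the PA libraries and 2.37, 2.08 and 2.22 in the PA + C3G libraries. The groups did not overlap, with 2.06 ± 0.22 (SE), adjusted p = 4.5e-05, in PA against BSA and -0.94 ± 0.22 (SE), adjusted p = 0.014, in PA + C3G against PA. Ppargc1b and Esrra, its paralog and a nuclear receptor partner, rose in PA (0.97 ± 0.14 and 0.81 ± 0.10) and fell in PA + C3G against PA (-0.57 ± 0.14 and -0.32 ± 0.09). Gabpa and Gabpb1, the subunits of GABP, fell in PA (-0.34 ± 0.04 and -0.76 ± 0.10) and were not called in PA + C3G against PA.

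Of 25 genes for electron carriers and nucleotide exchange, 7 rose and 7 fell in PA (28% each way, near the shares over all genes), and 4 rose and 1 fell in PA + C3G against PA. Atp5if1, the inhibitor of ATP synthase, was at 285, 300.1 and 278 FPKM in the BSA libraries, 184, 179 and 176 in the PA libraries and 247, 228 and 245 in the PA + C3G libraries. Its groups did not overlap, with -0.66 ± 0.05 (SE), adjusted p = 2.4e-06, in PA against BSA and 0.45 ± 0.05 (SE), adjusted p = 3.0e-04, in PA + C3G against PA. Gpd2, the mitochondrial glycerol phosphate dehydrogenase that is abundant in beta cells, fell in PA (-0.98 ± 0.07 (SE), adjusted p = 3.7e-06) and rose in PA + C3G against PA (0.37 ± 0.07 (SE), adjusted p = 0.0075) while staying below BSA. Ucp2, a mitochondrial carrier, followed the same order (-0.45 ± 0.04 and 0.27 ± 0.04). Slc25a3, the phosphate carrier that supplies ATP synthase, rose in PA (0.26 ± 0.04) and fell in PA + C3G against PA (-0.29 ± 0.04).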

How the data were processed

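RNA from 9 libraries of INS-1E cells (3 per group) was sequenced by the authors as paired reads of strand-specific, poly(A)-selected cDNA. The processing notes of the submitters name cutadapt 1.9, HISAT2 2.0.4, StringTie 1.3.4d, DESeq2 and edgeR. The genome build is not given in the sources used here. The authors deposited, per gene and library, FPKM values and estimated counts derived from coverage, which are whole numbers whose low values pile up at multiples of 4. Replicates were not pooled.

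Members, isoforms and gene lists were chosen with earlier results of these data known. The FPKM values were used for levels. Counts of the 12958 of 20645 genes with a mean of at least 1 FPKM were tested with the quasi-likelihood test of edgeR 4.0.16 in R 4.3.3, with TMM scaling, all 9 libraries in 1 fit and Benjamini-Hochberg adjustment over all tested genes. A gene was called at an adjusted p below 0.05. Genes described singly were all mitochondrial members, the complex II genes, the isoform pairs of complexes IV and V, the genes outside the complexes, and, per other complex, up to 2 called genes with the smallest p in each direction in PA against BSA and in PA + C3G against PA. Other genes named with values were chosen after their values were seen. Alternatives were DESeq2 1.42.0, limma 3.58.1 on log2(FPKM + 1) and log2(FPKM + 0.1), other scalings and filters, the compared groups alone, a replicate block, counts divided by 4, and each library left out in turn. Summing rows of near-identical copies was chosen after seeing the data. The fitting code was tested on simulated data. Depth was 45559993 to 66730721 estimated counts per library, and coordinates are those of the deposited table. Promoter windows came from RefSeq on GRCr8, whose coordinates are not those of the table.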

Additional observations from a re-analysis of the deposited data

How the results depend on the processing

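No call changed its direction under any alternative. The numbers of nuclear and of mitochondrial members called in PA against BSA stayed within 1.5 times the values reported, whereas some counts of 0 in single complexes did not, as given beside them. Calls in PA + C3G against PA and in PA + C3G against BSA depended more on the settings. With libraries scaled to equal FPKM sums, 4 nuclear members rose and 24 fell in PA + C3G against PA, 18 fell in PA + C3G against BSA, and 1 mitochondrial gene rose in PA + C3G against PA, while 0 rose and 2 fell in PA + C3G against BSA. That scaling also ended the calls of Ndufs5, Cox6c, Cox6a1, Mt-nd1, Mt-nd5 and Mt-cyb in PA + C3G against PA. With limma, 14 nuclear members fell in PA + C3G against PA and 22 in PA + C3G against BSA at either pseudocount, 1 (log2(FPKM + 1)) or 2 (log2(FPKM + 0.1)) mitochondrial genes rose in PA + C3G against PA, and 0 rose and 2 fell in PA + C3G against BSA. With DESeq2, 11 nuclear members fell and 2 mitochondrial genes rose in PA + C3G against BSA. Without a filter, 2 mitochondrial genes rose in PA + C3G against PA, and 0 rose and 0 fell in PA + C3G against BSA. At a mean of at least 5 FPKM, 13 nuclear and 2 mitochondrial genes fell in PA + C3G against BSA. With only the compared groups, 3 nuclear and 2 mitochondrial genes fell in it, and with counts divided by 4, 12 nuclear genes fell and 0 mitochondrial genes rose. With the replicate number as a block, 8 mitochondrial genes rose in PA + C3G against PA, and 3 rose in PA + C3G against BSA, where 13 nuclear members fell. Whether replicate numbers pair the libraries was not settled. The correlations of same-numbered deviations lay between -0.069 and 0.149, while 7 of 9 libraries correlated best with their own number. Library 2 had the highest mitochondrial share of the FPKM sum in each group (16.2% in BSA, 15.2% in PA and 15.3% in PA + C3G). It also had the lowest nuclear OXPHOS share in each (2.05%, 2.01% and 1.97%). Leaving out 1 library at a time gave 5 to 10 nuclear members lower and 0 to 6 mitochondrial genes higher in PA + C3G against PA, and 2 to 13 nuclear members lower, 0 to 1 mitochondrial genes higher and 0 to 1 lower in PA + C3G against BSA. When near-identical copies were summed, 16 nuclear members rose and 19 fell in PA against BSA, 10 rose and 8 fell in PA + C3G against PA, and 11 rose and 6 fell in PA + C3G against BSA, with 6 mitochondrial genes lower in PA and 5 higher in PA + C3G against PA. The causes of these shifts were not tested. Depth limited Cox6a2 in BSA and the untested isoforms, which had few counts.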

Other observations

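The vacuolar proton pump, which acidifies lysosomes and insulin granules, shares KEGG entry 00190 with the respiratory chain. Of its 16 tested genes, 9 rose and 1 fell in PA (median 0.22 on the log2 scale), where 25.8% and 25.2% of all genes did, 2 rose and 2 fell in PA + C3G against PA (11.1% and 10.2% of all genes), and 11 rose and 0 fell in PA + C3G against BSA (19% and 17.9%). Beside that 0 by edgeR, 0 were lower at an unadjusted p below 0.05 and by DESeq2, and 1 by limma. The difference from the OXPHOS genes was not tested.

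The mitochondrial genome also gave rows that encode no protein. Its 2 rRNA rows summed to 2297 ± 42.5 FPKM (SD, n = 3) in BSA, 2608 ± 30.8 in PA and 2566 ± 41.8 in PA + C3G, and its 22 tRNA rows to 2746 ± 21.2, 3469 ± 115 and 3043 ± 114. Of the rRNA rows, that of positions 1094 to 2664 rose in PA (0.40 on the log2 scale, adjusted p = 1.3e-05 by edgeR), while that of positions 68 to 1025 was at -0.03 and was not called. Among 8 tRNA rows of the minus strand, which carries Mt-nd6, 4 rose and 0 fell in PA, with a median of 0.35. Of all tested genes 25.8% rose and 25.2% fell. The rows that rose lie side by side from position 5010 to 5321, at 0.55 to 0.64. The rest of the minus-strand rows lay between -0.12 and 0.16 and were not called, so the rise was not one of the whole strand. Among 14 tRNA rows of the plus strand 1 rose and 1 fell, with a median of -0.15. Mt-nd6 on the minus strand fell in PA. Poly(A) selection captures rRNA and tRNA only in part, and the share captured was not measured. Whether reads in the tRNA rows came from mature tRNAs or from longer transcripts over the same positions was not tested.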
